A study of Homo sapiens with 18 samples.

Results

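The response to cisplatin was followed in SKOV-3 cells transfected with PEA-15AA (SKOV-3-AA), in 3 arrays of cisplatin-treated cells and 3 arrays of untreated cells. These are 6 of the 18 arrays of the study, chosen by their labels alone. SKOV-3 is a human ovarian carcinoma line. PEA-15 is a small phosphoprotein with a death effector domain that binds ERK1/2 and keeps it in the cytoplasm, and in PEA-15AA both regulatory serines are replaced with alanine, so that they cannot be phosphorylated. The treated SKOV-3-AA cells received 15 µM cisplatin for 24 h and the untreated SKOV-3-AA cells received medium for 24 h, both from 24 h after transfection. The other arrays, 3 per group, hold cells with the empty vector (SKOV-3-EV) or with the phosphomimetic PEA-15DD (SKOV-3-DD), treated and untreated in the same way. They are used here to ask where the SKOV-3-AA response differed. They also enter the spread per probe set, which all 18 arrays share, and so each SE and p-value of the SKOV-3-AA response. Every group was plasmid-transfected, also the untreated ones, all cells come from 1 line, and no source used here says that the 3 replicates of a group were separate cultures. The p-values therefore measure the spread between arrays, which may be technical.

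Cisplatin forms crosslinks on DNA that stall replication forks and transcribing RNA polymerase. Cells answer with checkpoint signalling, with repair by nucleotide excision and, for crosslinks between strands, by the Fanconi pathway and homologous recombination, and with stress-activated MAP kinase signalling that switches on immediate early genes. SKOV-3 cells are known to lack functional p53, the transcription factor that commonly drives CDKN1A after DNA damage.

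Each value is a log2 signal per probe set as the authors deposited it, so a difference of 1 is a 2-fold change. The array medians lay between 6.36 and 6.41 in treated SKOV-3-AA cells and between 6.59 and 6.61 in untreated ones, while the 612 negative control features had medians of 3.70 to 3.88 in treated cells and of 3.59 to 3.65 in untreated cells. The 95th percentile of these controls averaged 6.98 in treated and 6.80 in untreated cells, and a signal below it cannot be told from background. The PEA15 probe set was not higher in SKOV-3-AA than in SKOV-3-EV cells: its signals were 9.99, 10.22 and 10.42 in treated SKOV-3-AA cells, 9.96, 9.80 and 10.01 in untreated SKOV-3-AA cells, 10.95, 11.07 and 11.51 in treated SKOV-3-EV cells, and 10.31, 10.06 and 10.39 in untreated SKOV-3-EV cells. In SKOV-3-DD cells they were 10.53, 10.73 and 11.63 when treated and 9.59, 10.48 and 12.21 when untreated, which is the widest spread of the 6 groups. Where its probes lie is not stated in any source used here, and outside the insert they would check nothing. The study itself reports transfection shown by Western blot of HA-tagged PEA-15, which measures protein and not RNA. Of the epithelial and ovarian carcinoma markers, 7 of 10 measured lay above the control level, with KRT18 at 13.43 to 13.62 in treated and 13.60 to 13.79 in untreated cells. Of the markers of other cell types, 2 of 9 leukocyte, 0 of 8 endothelial and 2 of 8 stromal genes lay above it, namely PTPRC, CD68, COL1A1 and COL1A2, whereas CD3D, MS4A1 and PECAM1 were near the median of the negative controls. Of the genes named in what follows, DUSP8, SPRY3, SPRED3, EGF, ERBB3, EGR4, ATR, BCL2, CCL2, IRF7, CDH1, CLDN4, MUC16, PCDH9, PDE9A, PDE1B, ATP7A, ATP7B, UGT2B17, NAV3, GPRC5C and MAST1 had means below this level in both treated and untreated SKOV-3-AA cells, so that the size of their changes is not resolved. Others had a mean below this level in treated cells alone, such as FANCC, TNFSF10 and APAF1. In untreated cells alone this held for BCL2L11, PLK3 and LRRC8E, among others. The size of these changes is uncertain as well.

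Cisplatin changed a large share of the transcripts of SKOV-3-AA cells. Of 21448 probe sets tested with limma, 4781 rose (22.3%) and 4927 fell (23.0%) at an adjusted p under 0.05. With a change of at least 2-fold added, 1509 were higher (7.04%) and 2637 lower (12.3%), together 4146 (19.3%), and the study's own thresholds of an unadjusted p under 0.05 and 2-fold gave 4147 (19.3%). By size of change, 266 probe sets were at least 4-fold higher and 687 at least 4-fold lower, 25 were at least 16-fold higher and 24 lower, and 9 were at least 32-fold higher and 0 lower. The 3 treated arrays all lay above the 3 untreated ones for 6840 probe sets (31.9%) and all below them for 5968 (27.8%).

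Array scaling changed how the calls divided into higher and lower. As deposited, 36.4% of the 2-fold calls were higher. Centring each array on its median moved the median change of all probe sets by 0.21 and gave 2267 higher and 2014 lower (53% higher), and quantile normalization moved it by -0.05 and gave 1851 and 2260 (45% higher). Without the 2-fold limit, 8275 rose and 3979 fell after median centring, and 4916 rose and 4588 fell after quantile normalization. The median change over all probe sets was 0.09 as deposited, and the changes described next are many times that size. Fewer cells of a kind and less RNA per cell cannot be told apart in these bulk samples.

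The 15 genes with the highest change were mostly short, signal-responsive genes of transcription control, cell cycle arrest, cell death and secretion. SNAI1, a repressor of E-cadherin transcription, had signals of 11.84, 12.10 and 11.91 in treated cells, against 5.57, 4.88 and 4.65 in untreated cells. Its log2 fold change was 6.92 (SE 0.28, adjusted p = 3.53e-12), about 121-fold, and all of the untreated signals were at background level. ZNF280A, a zinc finger gene, reached 12.77, 12.84 and 12.69 in treated cells, against 6.25, 6.20 and 5.95 in untreated cells, a log2 fold change of 6.63 (SE 0.13). Both went in effect from background to a clear signal, and no treated array overlapped an untreated one.

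Orphan nuclear receptors of the NR4A family followed, which are induced by many stimuli within the first hours. NR4A2 had signals of 9.40, 9.50 and 9.52 in treated cells, against 4.37, 3.86 and 3.46 in untreated cells, a log2 fold change of 5.58 (SE 0.21). NR4A1 had 12.32, 11.79 and 12.14 in treated cells, against 6.35, 6.66 and 6.80 in untreated cells, a log2 fold change of 5.48 (SE 0.23). ATF3, a stress-induced bZIP factor, stood at 13.63, 13.67 and 13.58 in treated cells, against 8.29, 8.20 and 8.36 in untreated cells, where it was already measurable. The SDs of ATF3 within groups were far below its change of 5.34 (SE 0.13).

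The cell cycle and death genes of this set were high in all 3 treated arrays. CDKN1A, which encodes the cyclin-dependent kinase inhibitor p21, averaged 12.15 ± 0.12 in treated and 6.97 ± 0.27 in untreated cells (SD, n = 3 each), 36.1-fold higher. PMAIP1, the BH3-only death gene NOXA, averaged 15.91 ± 0.08 in treated and 11.05 ± 0.26 in untreated cells (SD, n = 3 each), 29.0-fold higher. HBEGF, a ligand of the EGF receptor, averaged 15.19 ± 0.26 in treated and 10.18 ± 0.09 in untreated cells (SD, n = 3 each), 32.1-fold higher. The remaining genes of the set were RND1 (5.57), ID2, an inhibitor of bHLH factors (5.17), OSR2, a zinc finger transcription factor (4.99), the kinase gene SGK1 (4.58), FOS (4.55), PTGS2, which encodes cyclooxygenase-2 (4.50), and the chemokine gene CCL20 (4.49), all as log2 fold changes. Of the 15 genes, 7 had an untreated mean below the background level, so that their fold changes have an uncertain base.

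**Figure D1:**
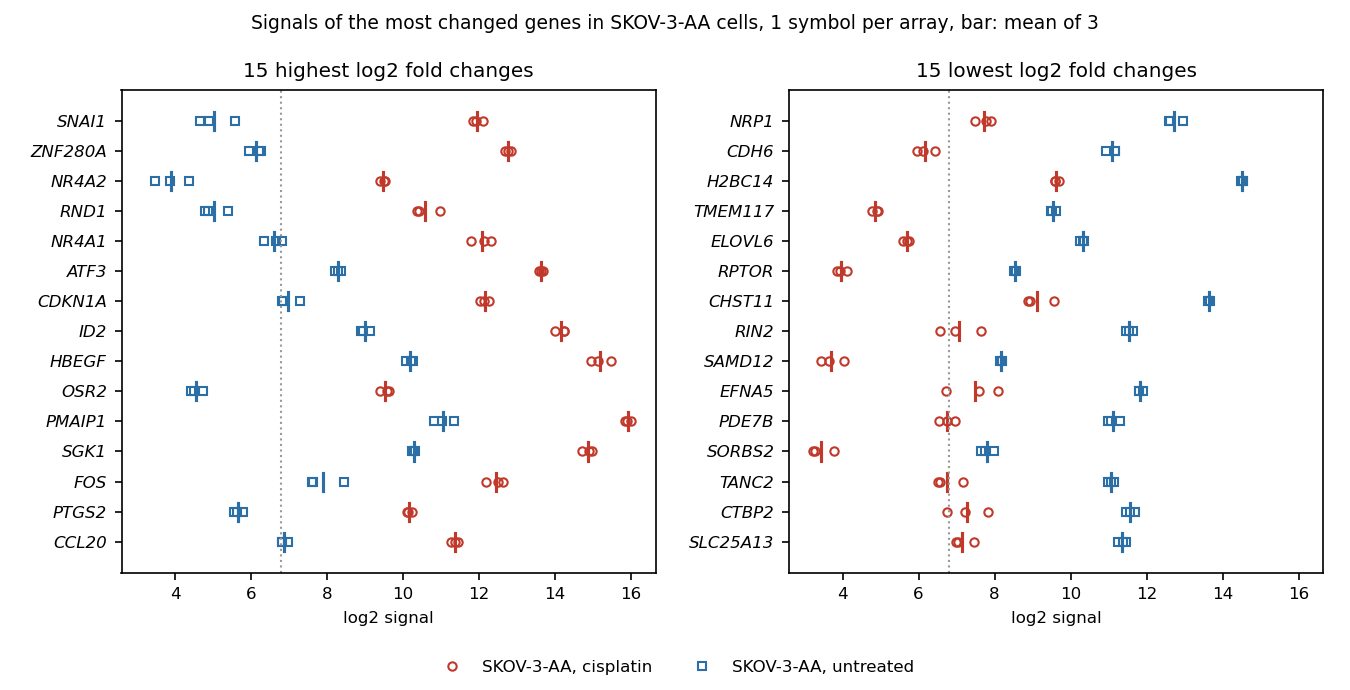
Log2 signals (x axis) of the genes with the 15 highest (left) and 15 lowest (right) log2 fold changes in SKOV-3-AA cells. Circles are the 3 cisplatin-treated arrays, squares the 3 untreated arrays, vertical bars the group means and the dotted line the mean 95th percentile of the negative controls in untreated cells (6.80); in every row the groups lie apart.

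The 15 genes with the lowest change were of another kind, mostly very long genes of adhesion, guidance, metabolism and signalling. NRP1, a co-receptor for semaphorins and VEGF, had signals of 7.49, 7.91 and 7.78 in treated cells, against 12.96, 12.61 and 12.60 in untreated cells, a log2 fold change of -5.00 (SE 0.23). CDH6, a cadherin, had 6.10, 5.96 and 6.43 in treated cells, against 10.93, 11.17 and 11.17 in untreated cells, a log2 fold change of -4.92 (SE 0.19). RPTOR, which encodes the Raptor subunit of mTOR complex 1, averaged 3.97 ± 0.13 in treated and 8.54 ± 0.03 in untreated cells (SD, n = 3 each), a log2 fold change of -4.58 (SE 0.19). RPTOR and CDH6 were thus at background level in all treated arrays.

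ELOVL6, a fatty acid elongase (-4.64), CHST11, a chondroitin sulfotransferase (-4.52), RIN2, an exchange factor for Rab5 (-4.49), EFNA5, an ephrin (-4.37), PDE7B, a cAMP phosphodiesterase (-4.37), CTBP2, a transcriptional corepressor (-4.30), and SLC25A13, the mitochondrial aspartate and glutamate carrier (-4.21), fell to a like extent on the log2 scale. TMEM117 (-4.67), SAMD12 (-4.48), SORBS2 (-4.36) and TANC2 (-4.32) complete the group together with the histone gene H2BC14 (-4.90). Treated means of 8 of the 15 were below the background level, so that the end point of these falls is uncertain.

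The span of a gene on the genome went with its response. The 15 lowest genes had a median span of 294 kb, against 8.29 kb for the 15 highest and 25.9 kb for all genes, and without H2BC14 the shortest of the 15 lowest was 135.5 kb long. Over 17683 genes, the Spearman correlation of span with log2 fold change was -0.45, a description across genes that share the same 6 arrays. It was -0.60 in the tertile of genes with the highest mean signal, -0.55 in the middle tertile and -0.17 in the lowest tertile, where the response was small throughout.

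In deciles of all genes by span, the median log2 fold change was 0.24 in decile 1 (up to 3.529 kb), 0.28 in decile 2, 0.22 in decile 5, -0.04 in decile 7, -0.29 in decile 8, -0.69 in decile 9 and -0.87 in decile 10 (from 156.3 kb). The share called 2-fold lower was 2.43% in the shortest decile and 47.6% in the longest, and the share called 2-fold higher was 13.7% in decile 2 and 0.452% in the longest. In the tertile with the highest signal, 80.5% of the longest decile were called lower and 0% higher. Genes called 2-fold higher had a median span of 12.94 kb and genes called lower one of 118.4 kb.

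**Figure D2:**
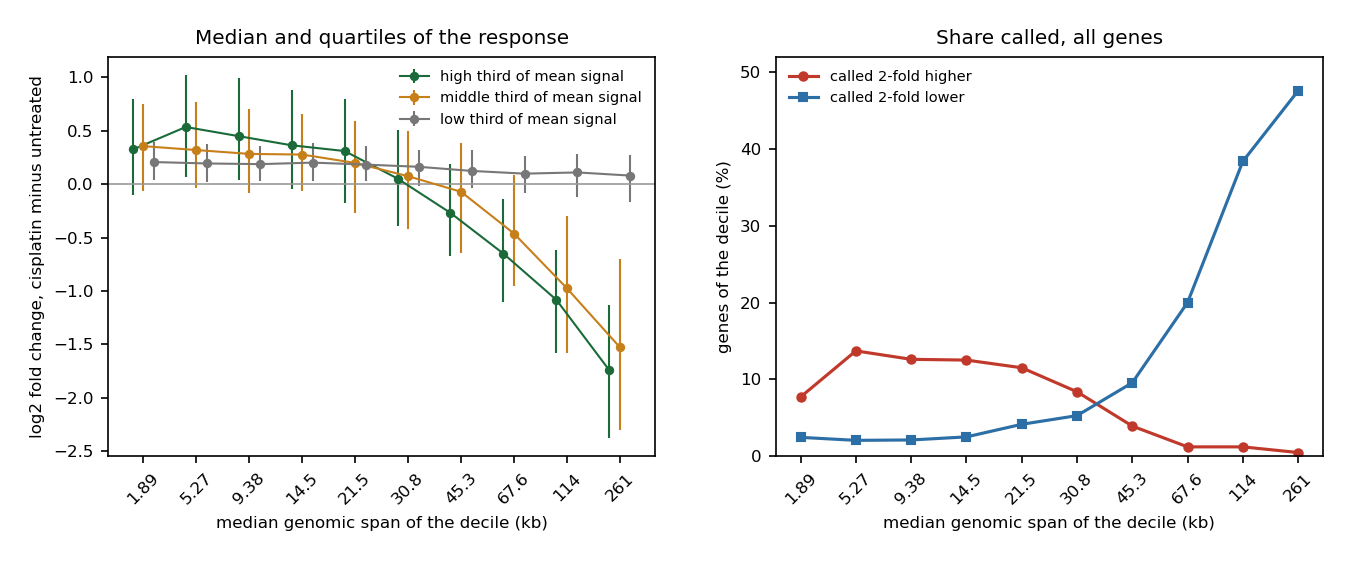
Left, median log2 fold change in SKOV-3-AA cells (y axis) with quartiles as bars for deciles of genes by genomic span (x axis, median kb of each decile), in tertiles of mean signal. Right, percentage of genes in each decile called 2-fold higher (circles) or lower (squares); from 1.89 to 261 kb the share called lower goes from 2.43% to 47.6%.

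Few genes went against this relation. Of 3076 genes over 100 kb, 1389 were called 2-fold lower and 21 higher. SGK1, annotated over 148.9 kb, was the steepest of these 21, with signals of 14.71, 14.98 and 14.88 in treated cells, against 10.32, 10.28 and 10.23 in untreated cells. ZNF503 (3.02), the protocadherin gene PCDH9 (2.15), the cyclin gene CCND3 (1.49) and the mucin gene MUC16 (1.40) were others, as log2 fold changes, although PCDH9 and MUC16 were at background level in treated and untreated cells. The annotated span covers all start sites of a gene, and which transcript was made was not measured. Of 2510 genes under 5 kb, 239 were called higher and 59 lower, and 26 of these 59 were histone genes. The others included the spindle gene PSRC1 (-2.82), the mTOR inhibitor DDIT4 (-1.82), the keratin gene KRT19 (-1.60) and 5 protocadherins of the beta cluster, PCDHB14, PCDHB7, PCDHB16, PCDHB6 and PCDHB10, with log2 fold changes between -2.12 and -1.02.

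Promoter sequence was set beside the rise. The cAMP response element (CRE), TGACGTCA, is bound by CREB and ATF family factors, among them ATF3. It was found in the promoter windows of 57 of 1055 genes called 2-fold higher (5.4%), of 72 of 2006 called lower (3.59%) and of 434 of 14250 tested genes with a window (3.05%), where a window runs from 250 bases before to 50 after a RefSeq start, and all windows of a gene were searched on both strands. Of all 35116 windows of this length, 1.85% hold it. The 6 steepest risers with a CRE among the windows shown here are given to show where the element lies; capitals mark the CRE, and the strand is that of the gene (RefSeq, GRCh38.p14).
GPR3, chr1:27392546-27392633, plus strand: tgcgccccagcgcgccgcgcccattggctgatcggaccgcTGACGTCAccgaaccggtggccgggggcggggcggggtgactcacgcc
SLC25A25, chr9:128098267-128098354, plus strand: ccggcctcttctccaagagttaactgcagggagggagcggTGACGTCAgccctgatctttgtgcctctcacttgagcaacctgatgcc
MUC13, chr3:124934772-124934859, minus strand: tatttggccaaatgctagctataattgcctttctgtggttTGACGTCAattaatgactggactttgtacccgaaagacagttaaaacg
DUSP1, chr5:172771273-172771360, minus strand: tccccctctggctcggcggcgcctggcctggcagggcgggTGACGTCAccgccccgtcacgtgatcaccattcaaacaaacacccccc
TUBB2A, chr6:3157557-3157644, minus strand: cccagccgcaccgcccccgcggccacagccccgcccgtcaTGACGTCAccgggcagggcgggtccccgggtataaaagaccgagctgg
PPP1R15A, chr19:48872323-48872410, plus strand: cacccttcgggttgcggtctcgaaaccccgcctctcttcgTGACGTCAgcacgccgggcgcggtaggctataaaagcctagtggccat

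GPR3, a receptor that raises cAMP, averaged 12.87 ± 0.12 in treated and 8.62 ± 0.21 in untreated cells (SD, n = 3 each), a log2 fold change of 4.24 (SE 0.19). DUSP1, a phosphatase that switches off MAP kinases, had 14.73, 14.91 and 14.77 in treated cells, against 11.26, 11.39 and 11.21 in untreated cells (3.52, SE 0.16). PPP1R15A, or GADD34, which restores translation after eIF2α phosphorylation, had 11.53, 11.76 and 11.29 in treated cells, against 8.74, 8.57 and 9.06 in untreated cells (2.74, SE 0.18). SLC25A25, a mitochondrial carrier (4.13), the mucin gene MUC13 (3.75) and the tubulin gene TUBB2A (2.75) rose as well. The letters TGANTCA take in the AP-1 element but allow any middle base, so they are broader than it. They were found in 6.64% of genes called higher, 9.22% of those called lower and 8.19% of all. The share for the AP-1 element alone was not counted. TATAAA stood at 11.1%, 10.9% and 12.3%. The CCAAT motif was found in 47%, 45.2% and 42.3%. No test was made of these shares, and a match of letters is not a bound site.

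Immediate early genes moved as a block. These genes encode transcription factors that are switched on by MAP kinases without new protein synthesis. Of 25 measured, 21 rose and 0 fell, against 22.3% and 23.0% of all probe sets. The median log2 fold change was 1.64, against 0.09 for all probe sets. Of the 25, 23 lay above the control level in treated or untreated cells, against 10777 of all 21448 probe sets. Shares of all probe sets thus include many at background level. The part above that level differs between lists, for example 6 of 19 phosphodiesterases and 43 of 43 ribosomal protein genes. The shares of 22.3% and 23.0% stand behind each list count that follows for the values as deposited. Counts after rescaling have other shares behind them. Of the 21448 probe sets, 8275 rose and 3979 fell after median centring, and 4916 rose and 4588 fell after quantile normalization. The members with the largest rise after NR4A2, NR4A1, ATF3, FOS and NR4A3 were KLF4 (3.45), IER5 (3.27) and FOSB (3.15). EGR1, a zinc finger factor induced through ERK1/2, had signals of 13.28, 13.43 and 13.87 in treated cells, against 11.03, 10.54 and 9.89 in untreated cells, a log2 fold change of 3.04 (SE 0.23). JUN (1.27), JUNB (1.64) and MYC (1.08) rose less, and JUND (-0.00), KLF6 (0.30), EGR4 (0.22) and FOSL2 (-0.29) did not pass the test.

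The feedback genes of the ERK pathway split. Of 20 measured, 9 rose and 7 fell, with a median of 0.22. The risers had a median span of 13.63 kb and those that fell one of 100.2 kb. Phosphatase genes were among the risers, with DUSP6, which dephosphorylates ERK1/2, at 13.03, 13.16 and 13.01 in treated cells, against 9.39, 9.13 and 8.82 in untreated cells (3.95, SE 0.16). DUSP5 (2.30), DUSP4 (1.85), DUSP2 (1.73) and DUSP8 (1.66) rose too. The Sprouty genes, which encode inhibitors of receptor tyrosine kinase signalling, went both ways: SPRY4 (2.47) and SPRY2 (1.79) rose, and SPRY1 (-2.97) and SPRY3 (-1.73) fell. SPRY1 had signals of 5.59, 5.16 and 5.25 in treated cells, against 8.43, 8.32 and 8.16 in untreated cells, so that its treated level was background. The related genes SPRED2 (-1.38), SPRED3 (-1.09) and SPRED1 (-0.97) and the ERK-responsive ETS factor ETV1 (-2.90) fell.

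EGFR and 1 of its ligands were the members of the EGF family with the largest changes. EGFR had signals of 7.29, 7.87 and 7.38 in treated cells, against 10.58, 10.88 and 10.51 in untreated cells, a log2 fold change of -3.14 (SE 0.22), whereas its ligand HBEGF rose by 5.00 on the same scale. NRG1, a ligand of ERBB3 and ERBB4, fell (-1.69). Of 10 measured genes of the family 2 rose and 2 fell (20% each), near the shares of all probe sets, and 4 rose after median centring. The second that rose was EGF (0.72), which was at background level in all 6 arrays and did not pass without replicate 2 of treated cells (0.41, adjusted p = 0.155) or replicate 2 of untreated cells (0.57, adjusted p = 0.1), nor without replicate 1 of untreated cells (0.63, adjusted p = 0.0807), and 3 genes rose without replicate 3 of treated cells. TGFA (-0.27), EREG (0.26) and ERBB3 (-0.01) did not pass.

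Cell cycle genes separated by phase. Of 35 genes of G2/M and mitosis, 27 fell and 3 rose, with a median of -0.98. PLK1, the mitotic polo-like kinase, had signals of 14.08, 14.09 and 14.10 in treated cells, against 15.54, 15.53 and 15.57 in untreated cells (-1.45, SE 0.12). KIF4A, a chromosome-bound kinesin (-2.18), the spindle checkpoint genes BUB1B (-1.63) and BUB1 (-1.63), and CENPF (-1.60) fell most, CCNB1 fell (-1.24), and NEK2 (0.96), CDK1 (0.62) and UBE2C (0.62) rose. The median span of this list, 29.37 kb, was near that of all genes. Its members that fell had a median span of 37.88 kb and the 3 that rose one of 16.52 kb.

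Of 38 genes that act at the start of S phase or in DNA synthesis, 14 rose and 9 fell. Regulators of S phase entry were among those that rose. CCNE1, which encodes cyclin E1, had signals of 13.01, 12.93 and 12.89 in treated cells, against 9.57, 9.35 and 9.53 in untreated cells (3.46, SE 0.13). CCNE2 (2.89), E2F1 (2.39) and the licensing factor CDT1 (1.96) rose with it. CDC25A, the phosphatase that activates CDK2, rose (2.19, SE 0.24) while CDC25C (-0.61) and CDC25B (-0.46) of the mitotic side fell. Against them, the primase gene PRIM2 (-3.13), CDK6 (-1.93), POLA1 (-1.68) and MCM6 (-1.41) fell. The members that rose had a median span of 14.93 kb and those that fell one of 48.19 kb.

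Replication-dependent histone genes fell as a family, although they are very short, with a median span of 0.489 kb. These genes have no introns and are made in S phase. Of 53 measured, 40 fell and 1 rose, with a median of -0.99, and their near-identical copies mean that probes may share signal. H2BC14 had signals of 9.68, 9.60 and 9.58 in treated cells, against 14.55, 14.49 and 14.53 in untreated cells (-4.90, SE 0.46). The linker histone genes H1-5 (-3.18), H1-3 (-2.77) and H1-2 (-2.73) followed. The one that rose, H3C13 (0.70), did not pass without replicate 1 of treated cells (0.50, adjusted p = 0.0546), and 2 histone genes rose without replicate 3 of untreated cells. SLBP, which binds the stem-loop of histone mRNAs, rose (1.25).

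The H2B genes carry the octamer ATTTGCAT, the site of OCT-1, in their promoters. It was searched after the histone falls had been seen, on both strands, and 13 of 15 H2B genes with a window held it (86.7%), against 2.15% of the 14250 tested genes. Of the 13 with the octamer 11 fell, with a median of -1.28, and of the other 2, H2BC13 fell (-1.81) and H2BC5 did not pass (-0.18). The windows of the 6 lowest H2B genes that hold it show how alike their layout is, with the octamer (capitals) upstream of a TATA-like stretch in most (RefSeq, GRCh38.p14).
H2BC14, chr6:27814934-27815021, plus strand: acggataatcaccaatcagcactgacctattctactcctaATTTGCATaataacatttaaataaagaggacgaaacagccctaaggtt
H2BC8, chr6:26216689-26216776, minus strand: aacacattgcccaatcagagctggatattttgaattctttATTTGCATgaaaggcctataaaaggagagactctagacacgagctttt
H2BC11, chr6:27132795-27132882, minus strand: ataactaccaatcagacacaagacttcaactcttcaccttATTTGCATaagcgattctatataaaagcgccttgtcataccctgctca
H2BC3, chr6:26043786-26043873, minus strand: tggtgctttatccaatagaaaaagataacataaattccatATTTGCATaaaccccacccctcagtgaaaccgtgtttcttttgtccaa
H2BC18, chr1:149812372-149812459, minus strand: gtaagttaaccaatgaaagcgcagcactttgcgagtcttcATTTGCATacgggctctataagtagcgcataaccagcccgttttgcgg
H2BC21, chr1:149886681-149886768, minus strand: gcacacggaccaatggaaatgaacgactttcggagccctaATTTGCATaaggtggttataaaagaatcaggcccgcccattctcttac

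The log2 fold changes of these genes were -4.90 for H2BC14, -2.31 for H2BC8, -1.92 for H2BC11, -1.89 for H2BC3, -1.84 for H2BC18 and -1.57 for H2BC21. The same element stands before H2BC9 (-0.36) and H2BC4 (-0.02), which did not pass. TATAAA was found in 71.4% of 49 histone promoters, against 12.3% of all.

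Genes of crosslink repair and lesion bypass fell more often than they rose. Of 26 Fanconi and homologous recombination genes, 15 fell and 6 rose, with a median of -0.73. FANCC, a subunit of the Fanconi core complex, had signals of 6.13, 5.68 and 6.48 in treated cells, against 10.02, 9.83 and 9.89 in untreated cells (-3.82, SE 0.41), so that its treated level was background. RAD51B (-3.24), annotated over 863.318 kb, RAD50 (-1.78) and MRE11 (-1.40) fell, and PALB2, which joins BRCA1 to BRCA2 (1.56), and XRCC3 rose most. Of 15 translesion synthesis genes, which let forks pass lesions, 10 fell and 3 rose, with a median of -0.60. REV3L, the catalytic subunit of polymerase zeta (-1.49), HLTF (-1.34) and REV1 (-1.07) fell most, and UBE2A rose (1.26). These are long genes: the median span was 58.15 kb in the Fanconi list (82.14 kb for those that fell and 34.47 kb for those that rose) and 51.79 kb in the translesion list (88.06 kb and 15.41 kb in the same order), against 25.9 kb for all genes.

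Nucleotide excision repair, which removes most platinum adducts, showed no common direction, with 6 of 23 genes up (26.1%) and 8 down (34.8%). The balance turned with scaling, to 11 up and 6 down after median centring and 9 up and 6 down after quantile normalization. XPC, the damage sensor of the global pathway, rose (1.17, SE 0.14), and ERCC4 (0.91) and ERCC2 (0.65) rose too. LIG1 (-1.69), RPA1 (-0.99), DDB1 (-0.91) and ERCC1 (-0.73), the partner of ERCC4 in the nuclease, fell. Of 19 checkpoint genes, 9 rose and 5 fell. CDC25A, RAD9A (1.23), H2AX (1.16) and RAD1 (1.04) rose, TP53BP1 (-1.13) and TOPBP1 (-0.84) fell, and ATR (-0.24) and CHEK1 (-0.32) did not pass. The count of those that fell was 3 without replicate 2 of treated cells.

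Genes known as p53 targets rose in part. Of 23 measured, 11 rose and 3 fell, with a median of 0.25. Besides CDKN1A, GADD45A had signals of 15.67, 15.62 and 15.70 in treated cells, against 11.88, 11.85 and 12.24 in untreated cells (3.67, SE 0.16), and PLK3 (2.65), AEN (2.43) and SESN2 (1.97) rose. MDM2, the p53 ubiquitin ligase (-0.04), FAS (-0.02), CCNG1 (-0.26) and ZMAT3 (-0.29) did not pass, and POLH fell (-0.84). DDB2 fell as well (-0.64) but did not pass after median centring (-0.43, adjusted p = 0.0677), after quantile normalization (-0.34, adjusted p = 0.154), without replicate 2 of treated cells (-0.43, adjusted p = 0.105) or without replicate 1 of untreated cells (-0.60, adjusted p = 0.0522).

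Of 15 BCL2 family genes, 6 rose (40%) and 2 fell (13.3%), with 9 risers after median centring and 10 after quantile normalization. The BH3-only genes PMAIP1 and BCL2L11 (BIM) rose most. BCL2L11 had signals of 9.43, 9.58 and 9.61 in treated cells, against 6.49, 6.72 and 6.86 in untreated cells (2.85, SE 0.13). BCL2L1, which encodes the survival protein BCL-XL, had 10.10, 10.36 and 10.40 in treated cells, against 12.19, 12.18 and 12.08 in untreated cells (-1.86, SE 0.17). MCL1 (0.01), BAX (0.27) and BCL2 (-0.31) did not pass. Of 16 genes of death receptor signalling and caspase activation, 7 fell and 3 rose. The TRAIL gene TNFSF10 (-2.41) and the receptor gene TNFRSF1A (-1.59) fell. APAF1 (-1.44) and CASP9 (-1.06), which act in the mitochondrial death pathway, fell as well, and the decoy receptor TNFRSF10D rose (2.86). TNFRSF10A (0.57), a TRAIL receptor, lost its call without replicate 1 (0.58, adjusted p = 0.073) or 3 (0.49, adjusted p = 0.12) of treated cells and without replicate 2 (0.51, adjusted p = 0.109) or 3 (0.49, adjusted p = 0.127) of untreated cells.

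Stress response genes went both ways. Of 24 genes of the integrated stress response, in which eIF2α kinases slow translation and ATF4 induces its targets, 13 rose and 8 fell. The median change was 0.49, and the median spans were 6.267 kb for those that rose and 52.25 kb for those that fell. DDIT3 (CHOP) had signals of 12.33, 12.34 and 12.12 in treated cells, against 8.30, 8.42 and 8.54 in untreated cells (3.84, SE 0.19). SESN2 and ASNS (1.97 each), CHAC1 (1.93) and CEBPB (1.89) rose with PPP1R15A, and ATF4 itself rose by 0.42. The 4 kinase genes EIF2AK4 (-2.36), EIF2AK2 (-0.90), EIF2AK3 (-0.89) and EIF2AK1 (-0.71) fell, and so did SLC7A11, the cystine transporter (-1.79). Of 19 genes of the unfolded protein response, 7 rose, led by DNAJB9 (3.04), and 5 fell, with ATF6 (-1.90) lowest, while HSPA5 (-0.19) did not pass. Of 17 heat shock genes, 7 rose, with CRYAB (2.37) and DNAJB4 (2.22) in front, and 3 fell, with HSPA4 (-1.14) lowest.

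Cytokine genes rose or did not pass, with 1 exception. Of 21 measured, 10 rose and 1, VEGFA, fell (-0.94), while 2 fell without replicate 3 of treated cells. IL6 had signals of 13.64, 13.72 and 13.50 in treated cells, against 9.97, 10.17 and 10.05 in untreated cells (3.56, SE 0.17). CXCL8, a neutrophil chemoattractant, had 14.09, 13.84 and 13.87 in treated cells, against 10.50, 10.34 and 10.38 in untreated cells (3.53, SE 0.21). IL1B (2.92), CXCL2 (2.06), CXCL3 (2.06) and IL1A (2.03) rose too, whereas CXCL1 (0.39), CCL2 (0.40) and LIF (-0.03) did not pass. Of 16 NF-κB subunit and feedback genes, 9 rose and 2 fell, with a median of 0.70: the inhibitors TNFAIP3 (2.36) and NFKBIA (1.90) and the subunits NFKB2 (2.03), RELB (1.22) and RELA (1.07) rose, and NFKB1 (-0.61) and TNIP1 (-1.23) fell. Of 23 interferon response genes, 5 rose and 5 fell (21.7% each, near the shares of all probe sets, and 8 and 3 after median centring), IRF7 (1.69) and IRF1 (1.55) most among the first and IFIT1 (-1.95), MX1 (-1.93) and the adaptor gene MAVS (-1.81) among the second. The count of those that fell was 3 without replicate 1 of treated cells and 3 without replicate 3 of untreated cells.

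Factors of epithelial-mesenchymal transition did not move together. Of 15 measured, SNAI1 and SNAI2 (0.80) rose and 6 fell, among them ZEB1 (-2.05), the mesenchymal cadherin CDH2 (-1.63) and FN1 (-1.26). CDH1, which encodes E-cadherin and is repressed by SNAI1, did not pass (-0.25, SE 0.19) and was at background level in both groups. Of 15 cadherins and catenins, 6 fell and 1 rose: after CDH6, CDH18 (-2.95) and CTNNA1 (-1.66) fell most, PCDH9 rose, and CTNNB1 (-0.24) did not pass. Among markers of the line, PAX8, a Müllerian lineage factor, had signals of 7.85, 7.92 and 8.67 in treated cells, against 11.63, 11.41 and 11.51 in untreated cells (-3.37, SE 0.26), and KRT19 (-1.60) fell, while KRT7 (1.00), KRT8 and CLDN4 were among 5 of 10 that rose. Of the 9 leukocyte markers PTPRC fell (-2.37), with 9.52, 9.61 and 10.00 in treated cells, against 12.20, 12.01 and 12.02 in untreated cells, and CD68, a lysosomal protein gene, rose (0.79). CD3E and ITGAM passed as well, at background level, and 1 to 2 leukocyte genes rose when 1 array was left out. Of the 8 stromal markers COL1A2 fell (-1.26), and of the 8 endothelial markers TEK (0.37) passed but lost its call without any 1 of the 6 arrays. The mean over each of these 3 lists differed little, at 5.80 to 5.95 in treated and 5.79 to 5.93 in untreated cells for leukocyte genes.

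Guidance, BMP and cAMP genes were among those with the deepest falls. Of 40 axon guidance genes, 13 fell and 6 rose. The neuropilin ligand SEMA3A (-4.14) and the navigator gene NAV1 (-3.58) fell with NRP1 and EFNA5, ROBO1 fell (-2.27), and EFNB2 (1.15) and EFNB1 (0.96) rose. The members that fell had a median span of 179.9 kb and those that rose one of 38.83 kb. Of 24 ID, BMP and TGF-β genes, 11 fell and 5 rose: ID2, BAMBI, a decoy receptor (3.45), BMP2 (2.72), ID4 (1.08) and ID3 (0.93) rose, ID1 (0.23) did not pass, and TGFBR2 (-2.27), SMAD3 (-2.20) and SMAD6 (-2.09) fell. Of 19 cyclic nucleotide phosphodiesterases, 9 fell and 2 rose. After PDE7B, PDE9A (-2.43), PDE8A (-2.23) and PDE1C (-2.02) fell, and PDE6B rose (1.15). The other riser, PDE1B (0.58), did not pass without replicate 1 (0.46, adjusted p = 0.106) or 3 (0.53, adjusted p = 0.073) of treated cells, or without replicate 2 (0.58, adjusted p = 0.054) or 3 (0.48, adjusted p = 0.0996) of untreated cells.

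Targets and cofactors of YAP and SRF went apart. Of 26 genes, 7 rose and 11 fell. The target genes CCN2 (3.37), CCN1 (2.15) and ANKRD1 (2.10) rose, as did SRF (2.08). The coactivator and cofactor genes MRTFB (-3.13), TEAD1 (-2.71), YAP1 (-2.19) and MRTFA (-2.06) fell. YAP1 had signals of 9.45, 9.44 and 9.71 in treated cells, against 11.78, 11.67 and 11.69 in untreated cells. The risers of this list had a median span of 8.992 kb and those that fell one of 123.0 kb.

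Autophagy and mTOR genes split in the same way by span. Of 36 autophagy genes, 13 rose and 16 fell, with median spans of 12.44 kb and 87.27 kb. The ubiquitin-like proteins of the autophagosome membrane were among the risers: GABARAPL1 (2.16), MAP1LC3B (2.11) and ATG12 (1.76) rose. MAP1LC3B had signals of 14.59, 14.50 and 14.57 in treated cells, against 12.38, 12.38 and 12.59 in untreated cells. The conjugation enzymes ATG7 (-3.00) and ATG10 (-2.32), their target ATG5 (-2.34) and the phosphatidylinositol kinase partner UVRAG (-4.08) fell. Of 24 mTOR genes, 8 rose and 7 fell: RPTOR, MAPKAP1, a subunit of mTOR complex 2 (-2.97), MTOR (-1.26) and RICTOR (-0.98) fell, and RPS6KB2 rose (0.90). Leaving out 1 array gave 8 to 11 autophagy genes that rose, with 8 without replicate 1 of treated cells. For mTOR genes it gave 4 without replicate 1 of treated cells or replicate 2 of untreated cells, and 5 without replicate 2 of treated cells or replicate 3 of untreated cells.

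Lipid synthesis genes fell in part. Of 30 measured, 15 fell and 7 rose, with a median of -0.59. Those of fatty acid synthesis and desaturation fell most: after ELOVL6 came SCD5 (-3.48) and ACACA, acetyl-CoA carboxylase (-3.41), whereas FASN (0.40) did not pass. In cholesterol synthesis IDI1 (1.19) and SC5D (1.10) rose and HSD17B7 (-2.04) and LSS (-1.25) fell. Of 17 clock genes, 7 fell, NPAS2 (-2.78), CLOCK (-1.44) and BMAL1 (-1.41) most, and 3 rose, among them NR1D1 (1.51).

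Genes of platinum handling and detoxification changed unevenly. Of 14 genes of platinum and copper transport, 7 rose and 4 fell, with median spans of 15.81 kb and 109.6 kb. Of the volume-regulated channel subunits, through which cisplatin can enter, LRRC8E rose (2.43), with signals of 8.47, 8.21 and 8.21 in treated cells, against 5.89, 5.76 and 5.93 in untreated cells. LRRC8D fell (-1.88), with 9.84, 9.55 and 9.81 in treated cells, against 11.78, 11.54 and 11.53 in untreated cells, and LRRC8A did not pass (0.34). The copper export pumps ATP7A (-2.13) and ATP7B (-1.25) fell. Of 12 metallothionein and zinc genes, 4 fell, MT1F (-0.67) most, and 2 rose, MTF1 (0.48) and SLC30A1 (0.45), of which either lost its call when 1 array was left out, MTF1 without replicate 2 of treated cells (0.45, adjusted p = 0.0528) or replicate 3 of untreated cells (0.41, adjusted p = 0.0708) and SLC30A1 without replicate 2 of untreated cells (0.35, adjusted p = 0.0556).

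Of 28 genes of the NRF2 pathway, which answers oxidative and electrophilic stress, 9 rose and 8 fell. Their median spans were 13.09 kb and 54.34 kb. NFE2L2, the NRF2 gene itself, did not pass, with 12.72, 12.67 and 12.67 in treated cells, against 12.51, 12.54 and 12.60 in untreated cells (0.13, SE 0.16). EPHX1 (2.61), OSGIN1 (2.32) and FTL (1.04) rose, and ME1 (-2.27), AKR1C3 (-1.86), TKT (-1.51) and HMOX1 (-1.05) fell. Of 11 glucuronidation genes measured, UGT2B7 fell (-1.38, SE 0.23), with 7.51, 6.81 and 6.34 in treated cells, against 8.21, 8.23 and 8.35 in untreated cells, and UGDH, which makes UDP-glucuronate, rose (0.56). UGT2B17 (0.49) passed as well but lost its call without replicate 1 (0.38, adjusted p = 0.132) or 3 (0.49, adjusted p = 0.0665) of treated cells and without any 1 of the untreated arrays (0.46 to 0.52, adjusted p = 0.0525 to 0.0842). No probe set carried a UGT1A symbol in the annotation used here, so the UGT1A genes were not analysed here.

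Ribosomal protein and oxidative phosphorylation genes mostly rose or did not pass, by small amounts. Of 43 cytosolic ribosomal protein genes, 24 rose and 0 fell, with a median of 0.35, RPL29 (0.92) and RPL27 (0.82) most. Of 65 subunits of oxidative phosphorylation, 33 rose and 8 fell, with a median of 0.35. NDUFC1 (1.53), NDUFA2 (1.42) and NDUFA13 (1.41) rose most, and NDUFS4 (-1.41), annotated over 122.7 kb, fell most. Median centring gave 36 and 44 risers in these lists and quantile normalization 19 and 32. Of 30 genes of transcription elongation, 11 rose and 9 fell. HEXIM1, which holds the elongation kinase P-TEFb inactive, had signals of 13.62, 13.60 and 13.51 in treated cells, against 11.59, 11.37 and 11.45 in untreated cells (2.11, SE 0.11), and MEPCE (1.85), CCNT1 (1.56), CCNT2 (1.51) and POLR2A (1.43) rose, while RTF1 (-1.36) and CDK13 (-1.30) fell.

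Of the 9 measured genes that the study discusses by name, EGR1, TIPARP and MAPK3 rose and MAVS and NAV3 fell. This set was picked by the study on these samples, so its count is no independent evidence. TIPARP had signals of 12.39, 12.45 and 12.48 in treated cells, against 11.75, 11.69 and 12.11 in untreated cells (0.59, adjusted p = 0.0187), and did not pass without replicate 3 of treated cells (0.57, adjusted p = 0.0512), or replicate 1 (0.54, adjusted p = 0.0651) or 2 (0.51, adjusted p = 0.076) of untreated cells. MAPK3, which encodes ERK1, stood at 0.32 (adjusted p = 0.0488) and did not pass without any 1 of the 6 arrays (adjusted p = 0.0623 to 0.171). NAV3 was below the background level in all 6 arrays. PRKG1 (-0.06, with all signals between 2.84 and 3.23) was at background, and GPRC5C (-0.31) and PEA15 (0.28) did not pass.

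The response of SKOV-3-AA cells was then set against that of SKOV-3-EV and SKOV-3-DD cells by testing the difference itself. No probe set differed at an adjusted p under 0.05 from SKOV-3-EV (0%) or from SKOV-3-DD (0%), and the lowest adjusted p was 0.555 and 0.985. At an unadjusted p under 0.05, 1480 differed from SKOV-3-EV (6.90%) and 1009 from SKOV-3-DD (4.70%), and with a 2-fold difference 79 (0.368%) and 39 (0.182%). The unadjusted 95% interval of a difference had a median half-width of 0.53 on the log2 scale, and differences over 1, such as those named next, did not pass the adjustment with 3 arrays per group. Across probe sets the SKOV-3-AA response had a Pearson correlation of 0.94 with that of SKOV-3-EV and 0.95 with that of SKOV-3-DD cells, from separate arrays.

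The genes that led the response in SKOV-3-AA cells moved in the others too. SNAI1 had log2 fold changes of 6.92 in SKOV-3-AA cells, 7.39 in SKOV-3-DD cells and 6.87 in SKOV-3-EV cells, and ZNF280A had 6.63, 6.65 and 6.86 in the same order. NRP1 stood at -5.00 in SKOV-3-AA, -4.50 in SKOV-3-EV and -4.73 in SKOV-3-DD cells. The 2-fold calls of the 3 transfections shared 3097 probe sets, which is 74.7% of the 4146 in SKOV-3-AA, 71.8% of the 4315 in SKOV-3-EV and 78.3% of the 3953 in SKOV-3-DD cells.

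**Figure D3:**
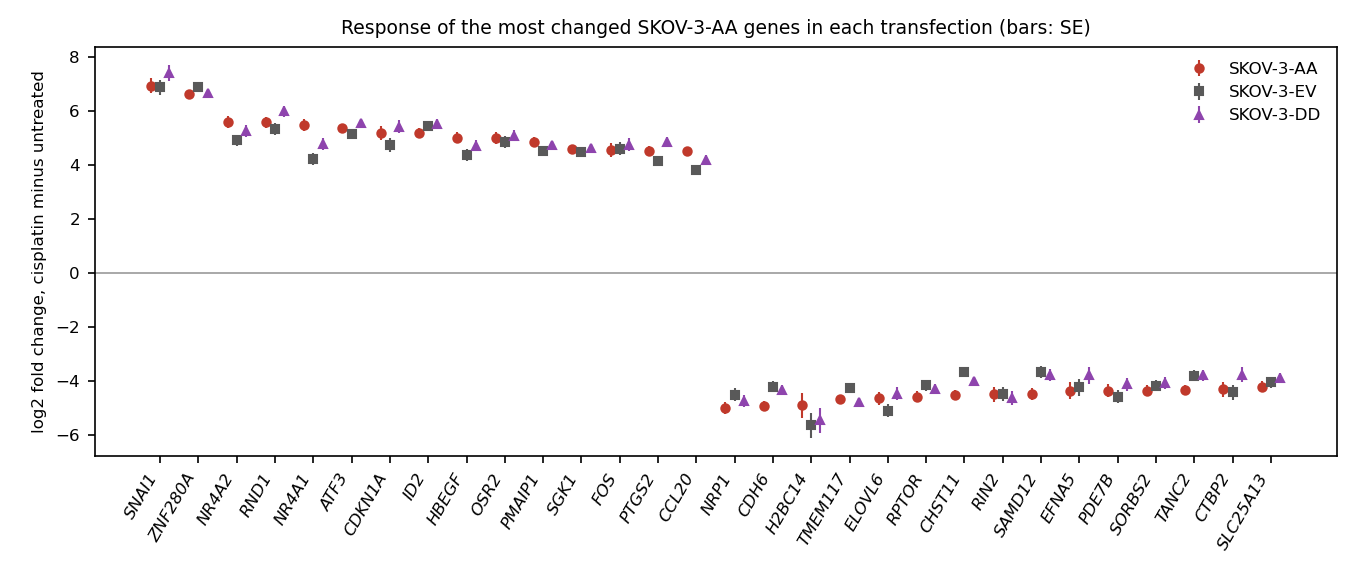
Log2 fold change (y axis, cisplatin minus untreated, 3 arrays per group) of the 15 highest and 15 lowest genes of SKOV-3-AA cells in SKOV-3-AA (circles), SKOV-3-EV (squares) and SKOV-3-DD (triangles) cells. Bars are the SE from the spread that all groups share, so each gene has the same bar in the 3 transfections. All 30 genes have the same sign in each transfection although they were chosen by the SKOV-3-AA values.

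Among the 10 smallest unadjusted p-values against SKOV-3-EV with a 2-fold difference were genes of the immediate early and cytokine sets, given here as values that did not pass the adjustment. The NR4A1 log2 fold change was 5.48 in SKOV-3-AA cells, against 4.22 with the empty vector, a difference of 1.26 (adjusted p = 0.555, limma). That of CXCL8 was 3.53 in SKOV-3-AA cells, against 2.33 with the empty vector, a difference of 1.20 (adjusted p = 0.555, limma). Its treated signals were 14.09, 13.84 and 13.87 in SKOV-3-AA cells, against 13.10, 13.33 and 13.75 with the empty vector, and its untreated signals 10.50, 10.34 and 10.38 in SKOV-3-AA cells, against 11.19, 11.01 and 10.99 with the empty vector. EGR1, a gene the study names, differed by 1.06 (adjusted p = 0.571, limma), with treated signals of 13.28 to 13.87 in SKOV-3-AA cells, against 13.49 to 13.82 with the empty vector, and untreated signals of 9.89 to 11.03 in SKOV-3-AA cells, against 11.47 to 11.98 with the empty vector. The treated arrays overlap and the untreated arrays do not.

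Among probe sets with a gene symbol and a 2-fold difference, the lowest p-value against SKOV-3-EV belonged to DTWD2, a tRNA-modifying enzyme gene. Its log2 fold changes were -2.36 in SKOV-3-AA cells, against -1.04 with the empty vector (adjusted p = 0.555, limma). The pentraxin gene PTX3 (1.84 in SKOV-3-AA cells, against 0.58 with the empty vector) and the lipid transfer gene PITPNC1 (-3.65, against -2.56) also had larger changes in SKOV-3-AA cells, at the same adjusted p, although the treated signals of PITPNC1 were at background level in both and so do not resolve the size of its falls. NAV3 went the other way, with -1.54 in SKOV-3-AA cells, against -2.57 with the empty vector, a difference of 1.03 (adjusted p = 0.571, limma). Its treated signals were 4.29 to 4.77 in SKOV-3-AA cells, against 3.98 to 4.57 with the empty vector, all below background level.

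Against SKOV-3-DD, among probe sets with a gene symbol and a 2-fold difference, the smallest p-values were those of the kinase gene MAST1 and of CFDP1. MAST1 stood at -1.03 in SKOV-3-AA cells, against 0.27 in SKOV-3-DD cells (adjusted p = 0.985, limma), and was at background level in all these arrays. CFDP1 stood at -2.97, against -1.75. EGFR had log2 fold changes of -3.14 in SKOV-3-AA, -2.30 in SKOV-3-EV and -2.05 in SKOV-3-DD cells, a difference of -1.10 from SKOV-3-DD (adjusted p = 0.985, limma). Its treated signals were 7.29, 7.87 and 7.38 in SKOV-3-AA cells, 8.45, 8.07 and 8.57 in SKOV-3-EV cells, and 7.92, 8.73 and 8.63 in SKOV-3-DD cells. Replicates 2 and 3 of treated SKOV-3-DD cells lay farther from their group mean than any other array, at root mean square distances of 0.305 and 0.311, against 0.178 to 0.186 for treated SKOV-3-AA arrays. Without these 2 arrays no probe set passed the adjusted p either, and 137 passed the unadjusted p with 2-fold in place of 39.

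Calls of 2-fold made in SKOV-3-AA alone numbered 424 (10.2% of the 4146), 191 higher and 233 lower. Of these, 421 moved in the same direction in both other transfections and 305 passed an adjusted p under 0.05 there as well, only below 2-fold. Their median absolute log2 fold change was 1.10 in SKOV-3-AA, 0.76 in SKOV-3-EV and 0.78 in SKOV-3-DD cells, a gap that the choice by the SKOV-3-AA threshold creates in part. At an unadjusted p under 0.05, 25 of the 424 differed from both other transfections, and at an adjusted p 0 did.

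**Figure D4:**
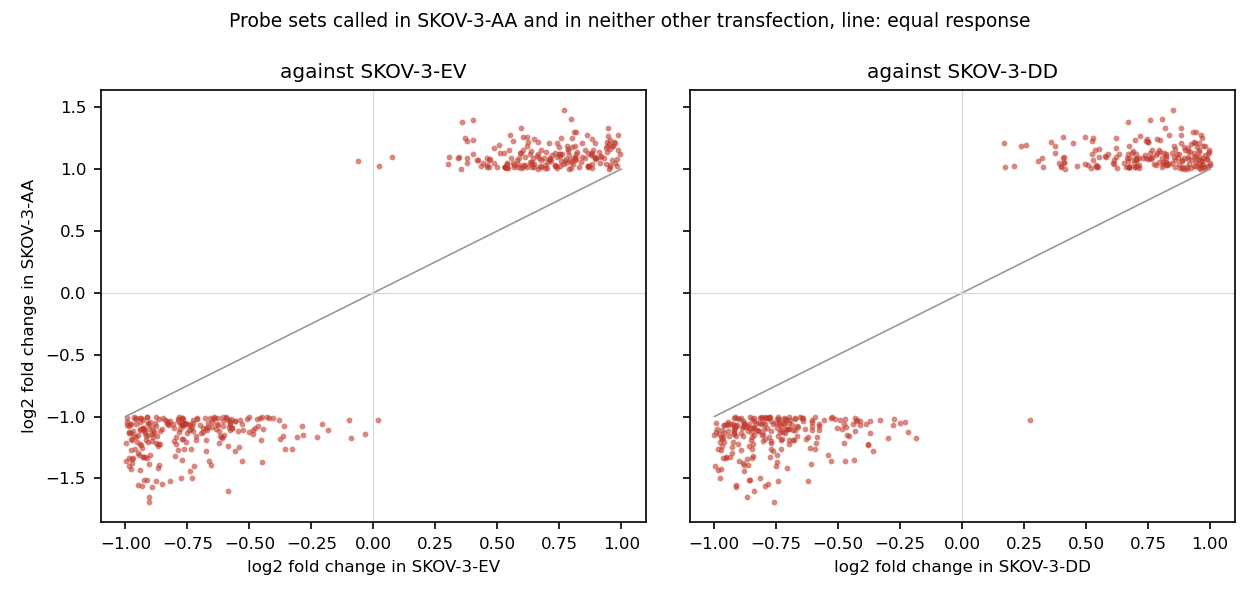
Log2 fold change in SKOV-3-AA cells (y axis) against that in SKOV-3-EV (left) and SKOV-3-DD (right) cells (x axes) for the 424 probe sets called 2-fold in SKOV-3-AA alone, 1 point per probe set, with the line of equal response. The points sit just past 1 or -1 on the y axis and mostly between 0 and the same limit on the x axes, on the same side of 0 in both others for 421 of 424.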

How the data were processed

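RNA of 18 samples of SKOV-3 cells was measured on Clariom S arrays, 1 array per sample, and the authors deposited log2 signals per probe set, made by SST-RMA in Transcriptome Analysis Console, a tool that the submitters' processing notes name. These values were used as deposited. The table has 24351 features, of which 2903 controls were left out, and 0 columns of other samples. Of the 21448 probe sets tested, 17709 carried 1 gene symbol (GEO's platform annotation, matched by Entrez identifier), 0 several and 3739 none, among them 478 of the 2-fold calls. Spans come from RefSeq (GRCh38.p14), with the probe set of the highest mean for each gene. Promoter windows matched 14250 of 17687 genes, and none from chromosome 8 is shown.

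Groups were taken from the labels and compared with limma 3.58.1 in R 4.3.3, with 6 group means, 12 residual degrees of freedom, a prior of 5.47 degrees of freedom, and Benjamini-Hochberg adjustment over all tested probe sets. The median SE of a change was 0.178 (log2), and the number of arrays limits the precision. The procedure was tested on simulated data. Named genes were the 15 highest and lowest changes with an adjusted p under 0.05, arrays without overlap and a higher-group mean above the overall median. Also named were the leading members of 41 gene lists, the genes the study names, and the smallest p-values among 2-fold differences in response. Members outside this rule, such as those that did not pass, were added after their values were seen. The members and lists were chosen with earlier results of these data known. Alternatives were median centring, quantile normalization, filters on low signals, trend and robust options, array weights, a replicate block, only the groups compared, 1.5-fold, 1 probe set per symbol, and leaving out each array. Figures were drawn with matplotlib 3.10.9.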

Additional observations from a re-analysis of the deposited data

Results flagged for a closer look

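The negative control features, which should bind no transcript and enter no comparison above, had a higher median signal in treated than in untreated SKOV-3-AA cells, by 0.15 on the log2 scale (3.70 to 3.88 in 3 treated arrays, 3.59 to 3.65 in 3 untreated arrays, 612 features). This signal lies outside the main measurement. Of the probe sets that rose in SKOV-3-AA cells, 1647 of 4781 had a treated mean under the 95th percentile of these controls, and of those that fell, 742 of 4927 had an untreated mean under it. Among the 2-fold calls these were 242 of 1509 higher and 306 of 2637 lower. The part of the background in these changes was not tested. Groups of 3 arrays are too small for an outlier test, so none was made.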

How the results depend on the processing

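Counts of 2-fold calls in SKOV-3-AA cells (1509 higher, 2637 lower) stayed within 1.5 times under most settings. A 1.5-fold limit gave 3409 higher and 4154 lower, and median centring 2267 higher. Leaving out 1 array gave 1505 to 1542 higher and 2571 to 2676 lower. Differences in response at an adjusted p under 0.05 numbered 0 under each setting tried (0 to 0 with 1 array left out). At an unadjusted p with 2-fold they were 38 in place of 79 against SKOV-3-EV and 15 in place of 39 against SKOV-3-DD with means under the median left out. With 1 array left out they were 76 to 131 (131 without SKOV-3-EV cisplatin replicate 3) and 33 to 128 (128 without SKOV-3-DD untreated replicate 1, 60 without SKOV-3-AA cisplatin replicate 3, and 79, 82 and 121 without SKOV-3-DD cisplatin replicate 1, 2 and 3). Leaving out 2 treated SKOV-3-DD arrays, chosen after seeing the data, gave 137, where the lone array is taken to vary like the other groups. The correlation with span was -0.60 with low means left out and -0.43 after quantile normalization. PEA15 in SKOV-3-AA minus SKOV-3-EV cells was -0.97 in treated cells (adjusted p = 0.367, -1.08 to -0.80 with 1 array left out) and -0.33 in untreated cells (adjusted p = 1, -0.42 to -0.26).

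Same-numbered replicates of treated and untreated SKOV-3-AA cells did not deviate together (correlations of 0.01, 0.01 and -0.02). Same-numbered arrays of different transfections were not compared in this way, so a replicate effect shared between transfections was not tested. With the replicate number as a block the counts were 1510 higher and 2637 lower, 0 and 0 differences at an adjusted p, and 82 against SKOV-3-EV and 41 against SKOV-3-DD at an unadjusted p with 2-fold. Among 236 named gene values, no called direction turned; 64 of their alternatives lost the call, 3 (all of PRKG1, at background) turned in sign without a call and 2293 held. Median centring also moved the number that rose to 5 in histones, 8 in the ID and BMP list, 4 in epithelial-mesenchymal factors and 5 in phosphodiesterases, and the number that fell to 1 in p53 targets, 3 in the unfolded protein response and 3 in the checkpoint list. Near the background level the arrays cannot resolve a change.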
